A study of Mus musculus with 8 samples.

Results

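The Hox genes of the embryonic mouse gonad were taken as the genes of the 4 Hox clusters whose symbol is Hoxa, Hoxb, Hoxc or Hoxd followed by a number, and which had a probe set annotated to that gene alone. There were 31 such genes with 38 probe sets, among 8252 genes with a single-gene probe set and 12488 probe sets on the array. A gene read by more than 1 probe set was represented by its brightest one on average. The 31 genes split into 10 of the Hoxa cluster on chromosome 6, 9 of Hoxb on chromosome 11, 5 of Hoxc on chromosome 15 and 7 of Hoxd on chromosome 2.

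Expression was measured on 8 Affymetrix MG_U74Av2 arrays, each hybridised with RNA from the gonads of 1 kind of embryo. The kinds were wild-type (WT) females, Wnt4 knock-out (KO) females, WT males and Wnt4 KO males, each at embryonic day 12.5 (E12.5) and at E14.5. No group had a replicate array, and the strain and the number of embryos per array were not given in the sources used here. Wnt4 is a secreted signal of the developing ovary, where it acts against testis development. Levels below are log2 signals after each array was brought to the common median, and lower values were raised to a floor of 6.99, the 40th percentile of the whole table.

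Hox genes encode homeodomain transcription factors that give cells their position along the body axis. The genes lie in clusters in which the order on the chromosome follows the order of their expression from head to tail, and genes at matching places in different clusters form paralog groups, shown by the number in the symbol. In the urogenital region the central and posterior genes are active in the intermediate mesoderm, the mesonephros and the reproductive ducts, where Hoxa9 to Hoxa13 pattern the female tract. Hox proteins bind DNA together with TALE homeodomain cofactors of the Pbx and Meis families, and Polycomb and trithorax proteins keep the clusters silent or active.

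Members on which the results turn are shown by the 250 bases before their start in RefSeq (build GRCm38.p6), 5′ to 3′ on the gene's strand. Hoxa9 and Hoxd9 were lower in the later ovary, and Hoxa5 had the largest KO difference. CpG dinucleotides, the sites of DNA methylation, are in capitals.

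Hoxa5, chr6:52204588-52204837, minus strand: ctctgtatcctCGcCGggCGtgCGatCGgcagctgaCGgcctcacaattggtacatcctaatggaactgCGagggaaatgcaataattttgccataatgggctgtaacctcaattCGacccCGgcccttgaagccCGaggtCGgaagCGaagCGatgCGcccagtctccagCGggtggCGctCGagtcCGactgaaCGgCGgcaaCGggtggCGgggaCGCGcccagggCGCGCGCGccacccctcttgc

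Hoxa9, chr6:52227371-52227620, minus strand: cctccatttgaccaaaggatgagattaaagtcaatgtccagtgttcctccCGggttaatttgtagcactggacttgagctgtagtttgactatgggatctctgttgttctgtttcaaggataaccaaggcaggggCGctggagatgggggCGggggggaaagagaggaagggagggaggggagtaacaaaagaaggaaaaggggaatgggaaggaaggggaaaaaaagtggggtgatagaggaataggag

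Hoxd9, chr2:74697513-74697762, plus strand: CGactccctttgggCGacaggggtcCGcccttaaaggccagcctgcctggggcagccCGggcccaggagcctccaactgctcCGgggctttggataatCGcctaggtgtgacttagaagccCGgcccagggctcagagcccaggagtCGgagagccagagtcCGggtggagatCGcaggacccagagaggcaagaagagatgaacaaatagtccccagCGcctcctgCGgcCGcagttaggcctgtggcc

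The Hoxa5 stretch held 28 CpG with 63.6% G and C, Hoxd9 held 13 with 65.2%, and Hoxa9 held 3 with 49.6%. RefSeq promoters were found for 20 of the 31 genes, 22 promoters in all, with a median of 13 CpG, while the median of all 32851 promoters was 6.0 and 92.1% of them held at least 1. Other motifs were searched on both strands. The Pbx-Hox composite TGATNNAT was in 4 of the 22 Hox promoters and 7.68% of all, the nuclear receptor half-site AGGTCA in 4 and 14%, the Cdx motif TTTATG in 3 and 10.8%, and TATAAA in 3 and 12.4%. None of these 4 motifs was found in the printed stretches of Hoxa5, Hoxa9 and Hoxd9. These matches describe letters only, and methylation and binding were not measured.

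Most Hox genes gave a signal above the floor on at least part of the arrays. Of the 31 genes, 11 lay above the 40th percentile on all 8 arrays, 12 on some arrays and 8 on none. The 23 genes above it on at least 2 arrays, 74.2% of the members, entered the tests. Over all 8252 genes that share was 76.9%. With the threshold at the 20th, 50th or 60th percentile, 30, 16 or 14 Hox genes passed.

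The 11 genes above the floor throughout were Hoxa4, Hoxa6, Hoxa7, Hoxb5, Hoxb6, Hoxb8, Hoxc5, Hoxd8, Hoxd9, Hoxd10 and Hoxd11. Hoxa4 ranged from 9.22 to 10.96 over the 8 arrays. Hoxd9, a posterior gene of the Hoxd cluster, ranged from 7.97 to 9.48. Hoxd8 ranged from 8.27 to 9.23 and Hoxa7 from 8.44 to 9.04. Probe sets differ in how strongly they bind, so these ranges do not rank the genes. They also hold only for the chosen probe sets. Another of Hoxb8 passed the floor on 1 array, at 4.87 to 7.05 over the 8, and another of Hoxa6 on 3. For Hoxa4, others at 3.35 to 4.25 and at 2.92 to 3.88 passed on 0 arrays and another on 8. The other probe set of Hoxd8 passed on 8.

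The 8 genes under the floor on every array were Hoxa10, Hoxb1, Hoxb4, Hoxb9, Hoxb13, Hoxc6, Hoxd1 and Hoxd12. They took in the most anterior genes measured in Hoxb and Hoxd, Hoxb1 and Hoxd1, and the most posterior in Hoxb, Hoxb13. Hoxa10, known for its role in the uterus and in descent of the testis, lay between 4.03 and 5.62. Hoxb9 lay between 5.59 and 6.72 and Hoxb13 between 6.69 and 6.81. A value under the floor says only that the signal was low against the other probe sets of these arrays.

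By cluster, 9 of 10 Hoxa genes, 5 of 9 Hoxb genes, 4 of 5 Hoxc genes and 5 of 7 Hoxd genes were tested. The most posterior genes were near the floor where they passed it. Hoxa13, which patterns the end of the genital tract and the digits, reached 7.01 at most, and Hoxa11 reached 7.04. Each passed the floor on 2 arrays. Hoxd13 passed it on the 2 E14.5 male arrays only, at 7.53 in WT and 7.69 in KO, and lay between 6.50 and 6.82 on the other 6.

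**Figure D1:**
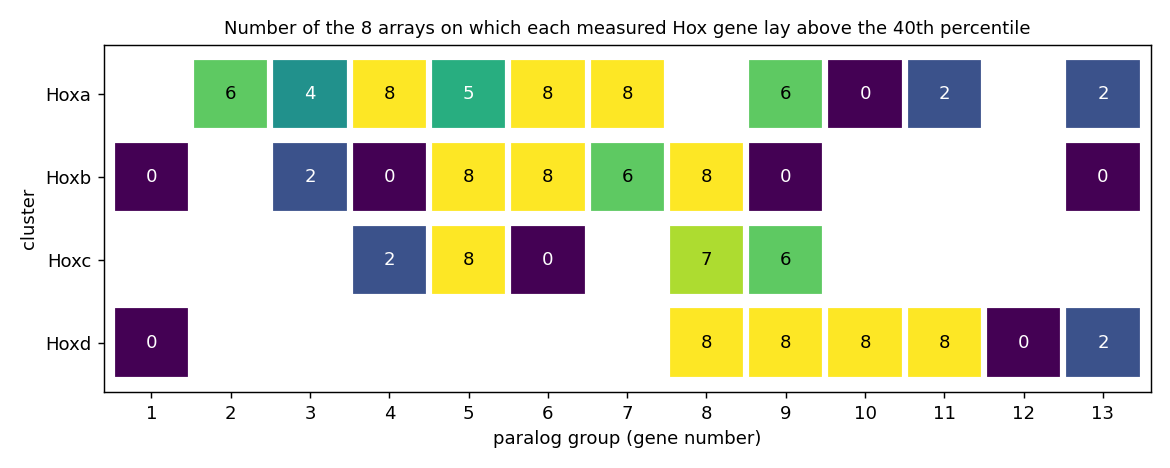
Each square is a measured Hox gene, placed by cluster (vertical) and paralog group (horizontal), and its number is the count of the 8 arrays with a signal above the 40th percentile. Counts of 8 sit in paralog groups 4 to 11, and genes with a count of 0 include Hoxb1, Hoxd1 and Hoxb13. Empty places had no single-gene probe set here.

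The gonad labels were borne out by markers, and genes of the mesonephros and ducts were above the floor too. Wt1 lay between 8.41 and 10.04 and Lhx9 between 7.23 and 8.17, both genes of the gonadal primordium. The kidney and duct genes Pax8, at 7.86 to 8.87, and Cdh16, at 8.71 to 9.81, were above the floor on all 8 arrays, Pax2 was near the floor at 6.95 to 7.36, and Ret and Epcam were under it throughout. The labels name only gonad, and whether a Hox signal came from gonad, mesonephric or kidney tissue cannot be told apart in these bulk samples. Nor can fewer cells of a type be told from less RNA per cell. Between 16 and 19 Hox genes were above the floor on each array. The 2 E14.5 male arrays stood apart from the rest, with correlations over all probe sets of 0.883 to 0.907 with the other 6 arrays. Those 6 correlated at 0.979 to 0.997 among themselves, and the E14.5 male arrays at 0.996 with each other. Bringing the arrays to the common median moved this pair up by 0.43 and 0.47 and the others by -0.34 to 0.09.

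**Figure D2:**
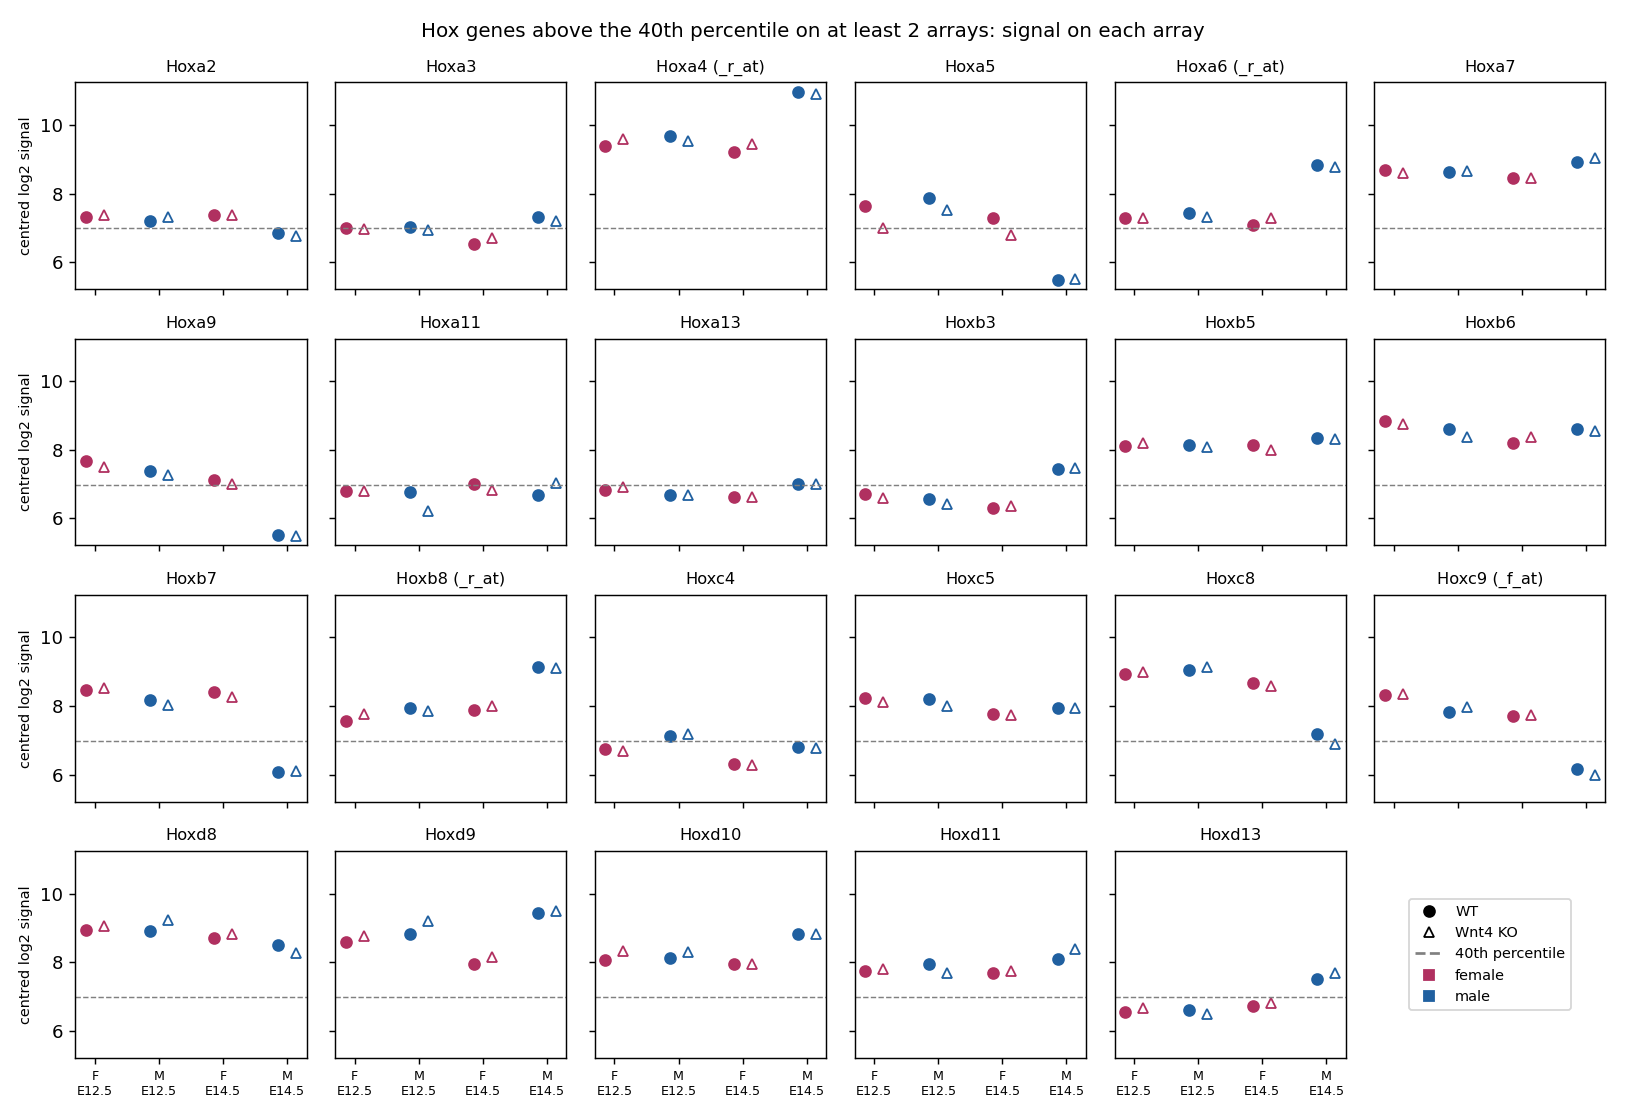
Centred log2 signal (vertical axis) of the 23 tested Hox genes on each of the 8 arrays, by sex and stage (horizontal axis), with filled circles for WT, open triangles for Wnt4 KO and a dashed line at the 40th percentile. WT and KO points lie close together in most panels, and the E14.5 male pair sits away from the other arrays, low for Hoxb7, Hoxc8, Hoxc9 and Hoxa9 and high for Hoxa4, Hoxa6 and Hoxb8.

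From E12.5 to E14.5 the female gonads lost signal for 5 Hox genes and gained it for 1. Hoxd9, Hoxc9, Hoxa9, Hoxb6 and Hoxc5 fell and Hoxb8 rose in limma's test, with an adjusted p under 0.05 over all 8452 tested probe sets. That is 6 of 23 tested members, 26.1%, where 23.1% of all tested probe sets passed (8.41% higher and 14.6% lower), so the share is close to the background. The median difference of the 23 genes was -0.16, or -0.24 without the floor, and that of all probe sets with the floor -0.02. All 3 tested genes of paralog group 9, Hoxa9, Hoxc9 and Hoxd9, were among the 5 that fell, a grouping seen after the values and not tested.

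Hoxa9, which acts in the oviduct, gave 7.67 in WT and 7.49 in KO females at E12.5, and 7.11 and 6.99 at E14.5. Both later arrays lay under both earlier ones, and the KO value at E14.5 was just above the floor. The fitted difference was -0.53 ± 0.04 (SE), with an adjusted p of 0.00894.

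Hoxd9 gave 8.59 in WT and 8.78 in KO females at E12.5, and 7.97 and 8.15 at E14.5. The stages did not overlap, and the fall was 1.54-fold in WT and 1.55-fold in KO. The fitted difference was -0.63 ± 0.10 (SE), with an adjusted p of 0.0179. The probe sets of Hoxd9 and its neighbour Hoxd10 carry the same sequence accession in the annotation, so the split of signal between these genes is uncertain. Hoxd10 differed by -0.24 ± 0.09 (SE) in the same direction, with an adjusted p of 0.123.

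Hoxc9 gave 8.31 in WT and 8.36 in KO females at E12.5, and 7.72 and 7.73 at E14.5. Its probe set is of the kind shared by a gene family (suffix _f_at), so other transcripts may add to it. The fitted difference was -0.61 ± 0.06 (SE), with an adjusted p of 0.011. Hoxb6 fell by 0.50 ± 0.09 (SE; adjusted p 0.0263), from 8.84 and 8.74 to 8.21 and 8.37. Hoxc5 fell by 0.43 ± 0.08 (SE; adjusted p 0.0244), from 8.24 and 8.13 to 7.76 and 7.75. In each of these genes both E14.5 arrays lay below both E12.5 arrays.

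Hoxb8 was the only member that rose, from 7.56 in WT and 7.77 in KO to 7.88 and 8.00. The difference was 0.27 ± 0.07 (SE), with an adjusted p of 0.046. Its probe set has the suffix _r_at, meaning that Affymetrix relaxed its probe selection rules. Hoxc8 came next among those that did not pass, at -0.33 ± 0.10 (SE; adjusted p 0.0679). Hoxc4, Hoxa3 and Hoxb3 had most or all of their female arrays at the floor, so their fitted differences were near 0. In limma's test without the floor they were lower at E14.5, by -0.44 (adjusted p 0.00957), -0.37 (adjusted p 0.0217) and -0.32 (adjusted p 0.0346). Hoxa2, a gene of the hindbrain and neural crest, differed by 0.04 ± 0.05 (SE; adjusted p 0.612), and Hoxb5 by -0.09 ± 0.08 (SE; adjusted p 0.49).

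These female calls rest on few arrays. Leaving out any 1 of the 8 arrays, or both E14.5 male arrays, left 0 Hox genes and 0 of all probe sets called, with fewer arrays to measure the spread. The fitted female differences come from the female arrays alone, so leaving out the E14.5 male arrays cannot change their size. The adjusted p of these 6 genes was then 0.105 to 0.147 in limma's test. On the deposited values without centring the median of all probe sets moved to -0.27. Of 24 fitted Hox genes 16 were then called lower and none higher, where 4886 of all 8361 probe sets were called lower and 270 higher. That scaling moves the female stage differences downward, so the kept sign of the 5 that fell is no separate evidence. Hoxb8 differed by 0.02 under it and was not called.

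Several marker lists moved over the same interval in females, where 8.41% of all tested probe sets rose and 14.6% fell. Of 8 tested germ cell genes 5 rose and 1 fell, and the summed germ cell level (log2) was 11.98 and 12.24 at E12.5 and 12.54 and 12.68 at E14.5. Of 12 tested mesonephros and duct genes 3 fell, with a summed level of 12.30 and 12.06 at E12.5 and 12.05 and 11.94 at E14.5. Of 7 tested genes of the kidney list 4 fell and 1 rose, with a median of -0.27. Of 14 tested mesenchyme genes 4 rose and 4 fell. Their part in the Hox differences was not tested.

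**Figure D3:**
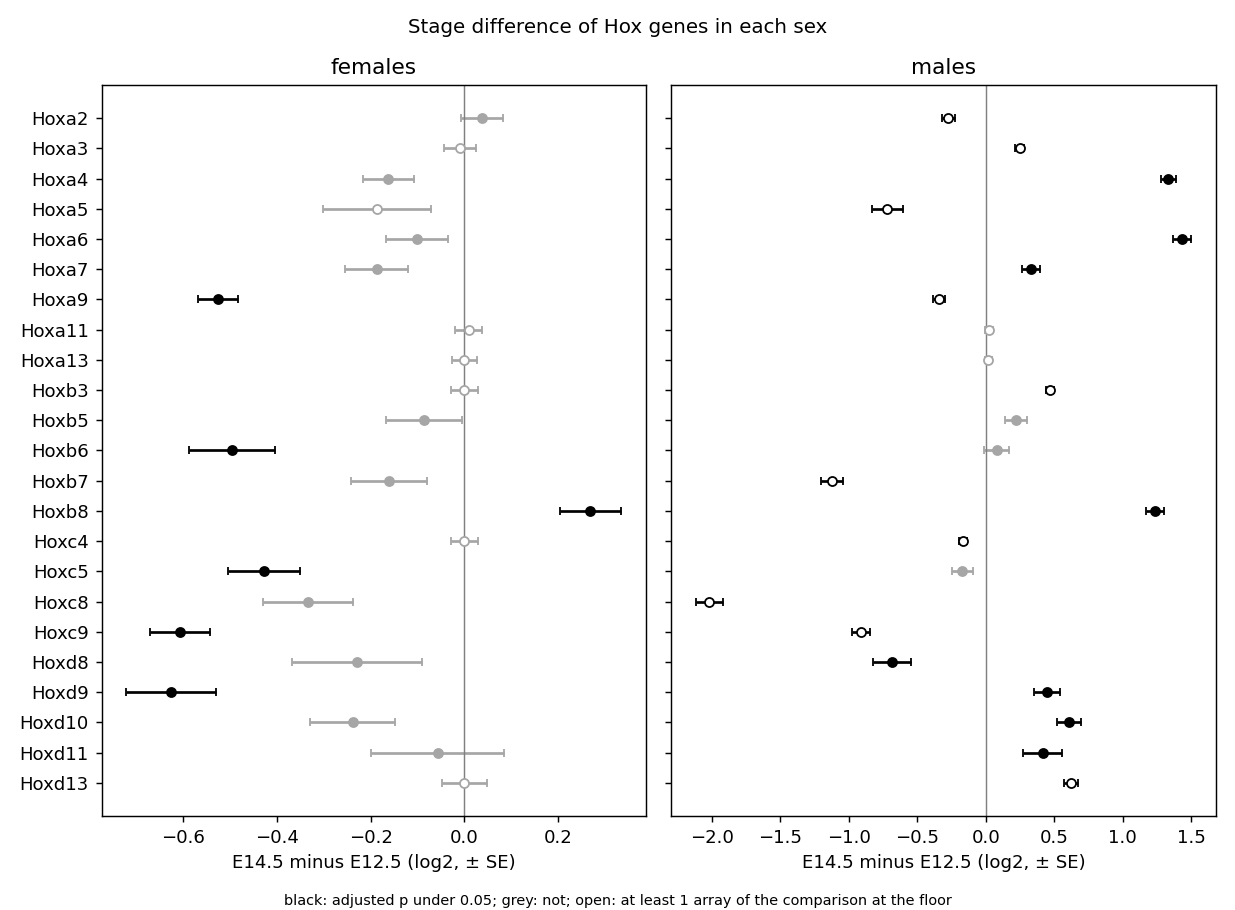
Difference from E12.5 to E14.5 (log2, fitted over both genotypes, bars ± SE) for the 23 tested Hox genes in females (left) and males (right), on axes of different width. Black points had an adjusted p under 0.05, grey points did not, and open points have at least 1 array at the floor. In females 5 black points lie left of 0 and Hoxb8 right of it, while in males 8 lie left and 10 right.

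At E12.5, when the testis has begun to form, 4 Hox genes differed between the sexes. Hoxc9, Hoxb7 and Hoxa9 were lower in males, and Hoxc4 was higher. These were 4 of 23 tested members, 17.4%, where 16.3% of all tested probe sets passed (7.79% higher in males and 8.51% lower), so again the share is close to the background. The median of the 23 genes was 0.01 and that of all probe sets 0.00.

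Hoxb7, a gene known for its expression in the Wolffian duct and ureteric bud, gave 8.48 in WT and 8.53 in KO females, against 8.18 in WT and 8.04 in KO males. Both males were below both females, by -0.39 ± 0.08 (SE) with an adjusted p of 0.0412. Hoxc9 gave 8.31 and 8.36 in females against 7.82 and 7.97 in males, a difference of -0.44 ± 0.06 (SE) with an adjusted p of 0.0256. Hoxa9 gave 7.67 and 7.49 in females against 7.37 and 7.28 in males, a difference of -0.25 ± 0.04 (SE) with an adjusted p of 0.0306. Without the floor the adjusted p of Hoxa9 was 0.0511.

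Hoxc4 passed the floor in males only, at 7.13 in WT and 7.17 in KO, against 6.76 and 6.71 in females. With the females at the floor the fitted difference was 0.17 ± 0.03 (SE; adjusted p 0.0314), and without the floor it was 0.42. Other members differed without passing. Hoxa5 differed by 0.38 ± 0.12 (SE; adjusted p 0.0864), Hoxd9 by 0.33 ± 0.10 (SE; adjusted p 0.0746) and Hoxb6 by -0.30 ± 0.09 (SE; adjusted p 0.085).

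As in the female comparison of stages, no call at E12.5 survived the loss of 1 array, and 0 of all probe sets were then called. Without centring 6 of 24 fitted Hox genes were called higher in males and 1 lower, while the median of all probe sets moved to 0.12. Of all 8361 probe sets 2460 were then called higher and 413 lower. Markers differed too, where 7.79% of all tested probe sets were higher in males and 8.51% lower. The mesonephros and duct list had 1 of 12 tested genes lower in males and a median of -0.29, with summed levels of 12.30 and 12.06 in females and 11.99 and 11.94 in males. The mesenchyme list had 4 of 14 higher in males, and the Sertoli list 5 of 10 higher. Their part in the Hox differences was not tested.

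For loss of Wnt4 no Hox gene was called in either sex, but neither was any other of the 8452 tested probe sets. Wnt4 itself was tested and not called, so the lack of calls says nothing about Hox genes in particular. Wnt4 itself gave 10.19 in WT and 8.59 in KO females at E12.5, and 9.45 and 8.32 at E14.5. In males it gave 9.26 and 8.34 at E12.5, and 9.42 and 9.19 at E14.5. KO was lower on every pair, by least in E14.5 males, and the signal stayed above the floor in KO. Which part of Wnt4 the probe set reads was not checked here.

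In females 0 of 23 tested Hox genes passed, as did 0% of all tested probe sets. At an unadjusted p under 0.05, 3 Hox genes and 962 of all probe sets (11.4%) stood out in limma's test. In males 0 of 23 passed where the background was also 0%, with 1 Hox gene and 405 probe sets at the unadjusted level. The difference of the KO effect between the sexes gave 0 Hox genes against a background of 0%, with 1 Hox gene and 971 probe sets at the unadjusted level. The fitted KO differences of the 23 genes ran from -0.48 to 0.21 in females and from -0.17 to 0.20 in males.

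Hoxa5, a gene that patterns the lung and the neck vertebrae, had the largest KO difference among the members. It gave 7.65 in WT and 7.0 in KO females at E12.5, and 7.29 and 6.79 at E14.5, the last under the floor. In E12.5 males it gave 7.88 in WT and 7.53 in KO, and in E14.5 males it was under the floor at 5.49 and 5.51. Each KO array with a WT partner above the floor was the lower of the pair. The difference in females was -0.48 ± 0.12 (SE) with an adjusted p of 0.433, and in males -0.17 ± 0.12 (SE) with an adjusted p of 0.794.

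Taking the sexes as repeats at E12.5, Hoxa5 differed by -0.49 ± 0.10 (SE) with an adjusted p of 0.338 in the companion limma fit. In that fit 0 Hox genes passed where 0.0828% of all tested probe sets did (0.0592% higher and 0.0237% lower), with 3 Hox genes and 312 probe sets at an unadjusted p under 0.05. The adjusted p of Hoxa5 ranged from 0.0447 with a floor at the 20th percentile, where it passed, to 1 with any 1 array left out. At E14.5 the same fit gave 0 Hox genes against 0%, with 0 Hox genes and 353 probe sets at the unadjusted level. Without either of the female E14.5 arrays that comparison rests on the male pair alone, which for Hoxd13 gave 0.16. Hoxd13 was then called, but the E12.5 arrays, the only ones left to measure its spread, were all at the floor.

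Other members with KO differences of 1 sign were smaller. Hoxa4 differed by 0.21 ± 0.05 (SE; adjusted p 0.433) in females, from 9.39 to 9.60 at E12.5 and from 9.22 to 9.44 at E14.5. In males it differed by -0.09 ± 0.05 (SE; adjusted p 0.794). Hoxd9 differed by 0.18 ± 0.10 (SE; adjusted p 0.49) in females and 0.20 ± 0.10 (SE; adjusted p 0.794) in males, with the widest pair in E12.5 males, 8.83 in WT and 9.20 in KO. Hoxa9 differed by -0.15 ± 0.04 (SE; adjusted p 0.433) in females. Hoxb8 differed by 0.17 ± 0.07 (SE; adjusted p 0.436) and Hoxd8 by 0.12 ± 0.14 (SE; adjusted p 0.729) in females. The chosen probe sets of Hoxa4 and Hoxb8 are of the _r_at kind, of which 441 were tested. Of these, 76.2% had a positive KO difference in females and 23.4% in males, against 38.7% and 57.4% of 6805 plain probe sets.

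**Figure D4:**
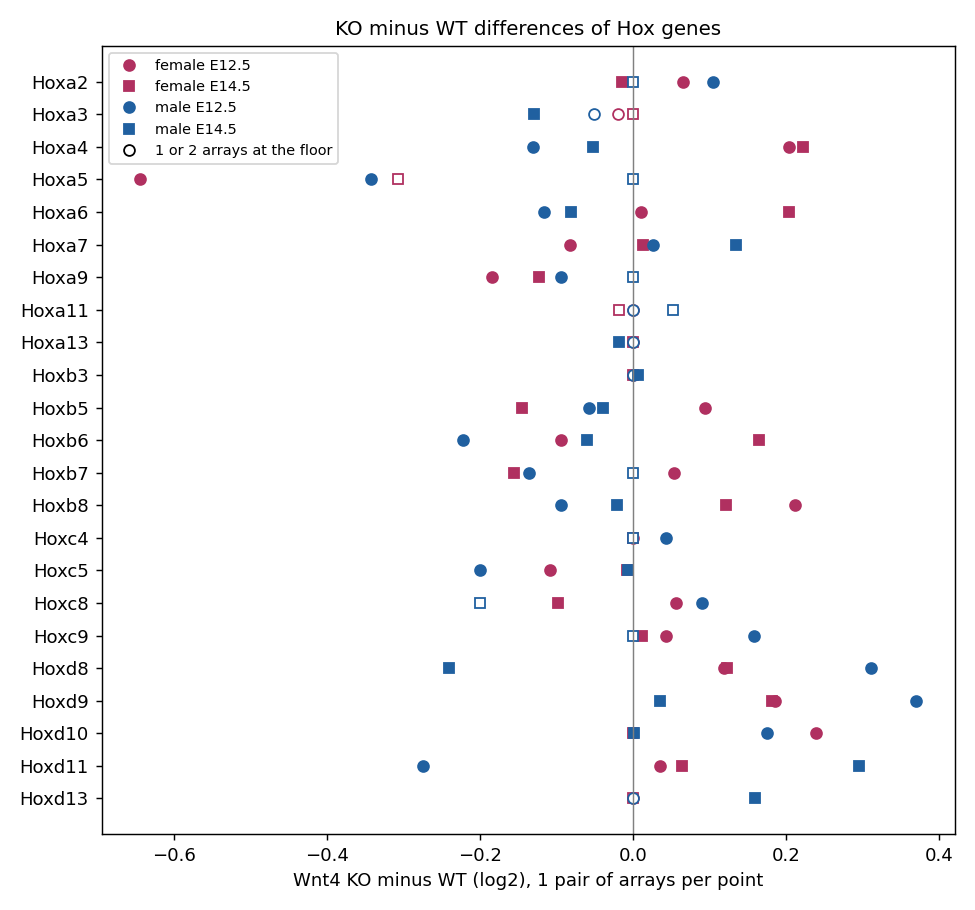
Wnt4 KO minus WT difference (horizontal axis, log2) of the 23 tested Hox genes in each of the 4 pairs of arrays, red for females, blue for males, circles for E12.5, squares for E14.5, and open symbols where 1 or both arrays lay at the floor. Most points lie near 0, and Hoxa5 has the lowest, at -0.64 in E12.5 females.

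Between E12.5 and E14.5 the male gonads changed for most Hox genes, in both directions. In limma's test 10 rose and 8 fell, 18 of 23 or 78.3%, where 77.8% of all tested probe sets passed (38% higher and 39.9% lower), so the share is close to the background. The median of the 23 genes was 0.08, or 0.27 without the floor, and that of all probe sets -0.00. These values rest on the E14.5 male arrays that stand apart from the rest, and a difference of those arrays and a change of the testis cannot be told apart. Leaving out each array in turn gave 14 to 17 called Hox genes, and 4982 to 6144 called among all probe sets. Of the Hox calls 12 held throughout, 6 higher and 6 lower. Among these, Hoxa3, Hoxa9, Hoxb3, Hoxb7, Hoxc4, Hoxc8, Hoxc9 and Hoxd13 had male arrays at the floor. Arrays raised to the same floor cannot differ, which lowers the spread in the test, so a call that held is weaker support there.

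Hoxc8, a gene of the trunk, was among the genes that fell most. It gave 9.06 in WT and 9.15 in KO males at E12.5, against 7.19 and 6.90 at E14.5, the last under the floor. That was 3.66-fold in WT and at least 4.48-fold in KO, and the fitted difference was -2.02 ± 0.10 (SE) with an adjusted p of 8.29e-05. Hoxb7 went from 8.18 and 8.04 to 6.07 and 6.10, Hoxc9 from 7.82 and 7.97 to 6.16 and 6.0, Hoxa9 from 7.37 and 7.28 to 5.51 and 5.50, and Hoxa5 from 7.88 and 7.53 to 5.49 and 5.51. All E14.5 male values of these 4 genes lay under the floor, so their fitted differences depend on it. With the floor they were -1.12, -0.91, -0.34 and -0.72, and without it -2.02, -1.81, -1.82 and -2.20. Hoxd8 fell by 0.68 ± 0.14 (SE; adjusted p 0.00774), and its other probe set by 1.07 ± 0.17 (SE; adjusted p 0.00329). Hoxa2 and Hoxc4 also fell. Their E14.5 values were under the floor as well, so their differences of -0.27 and -0.17 are least sizes, and without the floor they were -0.46 and -0.36.

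The genes that rose most were Hoxa6, Hoxa4 and Hoxb8. Hoxa6 went from 7.43 and 7.31 to 8.84 and 8.76, 2.66-fold in WT and 2.73-fold in KO, with a fitted difference of 1.43 ± 0.07 (SE; adjusted p 8.15e-05). Hoxa4 went from 9.67 and 9.54 to 10.96 and 10.91, by 1.33 ± 0.05 (SE; adjusted p 7.51e-05). Hoxb8 went from 7.94 and 7.85 to 9.14 and 9.12, by 1.23 ± 0.07 (SE; adjusted p 9.82e-05). All 3 were read by _r_at probe sets, and 81.4% of the 441 tested probe sets of that kind were called higher here, with a median of 0.78. Of the 6805 plain probe sets 34.6% were called higher, with a median of -0.06. The part of the probe set kind in these rises was not tested. Another, plain probe set of Hoxa4 rose by 0.39 ± 0.08 (SE; adjusted p 0.00822), and a family-shared one of Hoxa6 by 0.69 ± 0.04 (SE; adjusted p 0.000147). The other one of Hoxb8, above the floor on 1 array, was not tested. It gave 5.12 and 4.87 in males at E12.5 and 6.92 and 7.05 at E14.5. A tested probe set annotated to Hoxb8 and Hoxb7 together did not rise. Its values in males were all under the floor, at 6.97 and 6.80 at E12.5 and 6.26 and 6.52 at E14.5. Without the floor the difference was -0.49. Between the sexes at E14.5 it differed by -0.23 (adjusted p 0.0045 in limma's test), lower in males, and by -0.82 without the floor. The share of each gene in it is unknown.

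The other genes that rose were Hoxd13 (0.62), Hoxd10 (0.61), Hoxb3 (0.47), Hoxd9 (0.45), Hoxd11 (0.42), Hoxa7 (0.33) and Hoxa3 (0.25). Hoxd13 and Hoxb3 were under the floor on both E12.5 arrays, so their values are least sizes, and without the floor they were 1.06 and 0.96. Without centring, which moved the median of all probe sets to -0.69, Hoxd9, Hoxd10, Hoxd11, Hoxa7 and Hoxa3 changed sign. Then 4 of 24 fitted Hox genes were called higher and 16 lower, against 787 and 6329 of all 8361 probe sets. By cluster, 4 of 5 tested Hoxd genes were higher and 1 lower, 3 of 4 Hoxc genes lower and 0 higher, 4 of 9 Hoxa genes higher and 3 lower, and 2 of 5 Hoxb genes higher and 1 lower. Over all tested probe sets 38% were higher and 39.9% lower. The grouping by cluster was not tested, and it takes in the genes above whose sign depends on the centring.

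At E14.5 the sexes differed for 16 of 23 tested Hox genes, 69.6%, where 77.5% of all tested probe sets passed (39.5% higher in males and 38% lower). Males were higher for 12 and lower for 4, with a median of 0.26 over the members and 0.00 over all probe sets. A difference of the E14.5 male arrays, which stand apart, and one of the sexes cannot be told apart. Hoxa6 (1.62), Hoxa4 (1.60) and Hoxb8 (1.19) were read by _r_at probe sets. Of the 441 tested of that kind 79.1% were called higher in males, against 36.7% of 6805 plain ones. The part of the probe set kind was not tested. Hoxd9 gave 7.97 and 8.15 in females and 9.45 and 9.48 in males, a difference of 1.41 ± 0.10 (SE; adjusted p 0.000188). Hoxc8 gave 8.67 and 8.58 in females and 7.19 and 6.90 in males, a difference of -1.54 ± 0.10 (SE; adjusted p 0.000152). Hoxb7 gave 8.42 and 8.27 in females and 6.07 and 6.10 in males. With the males raised to the floor the difference was -1.36 ± 0.08 (SE; adjusted p 0.000138), which is its least size, and without the floor it was -2.25. Hoxa9 and Hoxa5, also under the floor in both males, were not called, with differences of -0.07 and -0.15. Without the floor these were -1.55 (adjusted p 8.97e-06) and -1.54 (adjusted p 2.87e-05) in limma's test. Uncentred, 6 of 24 fitted Hox genes were called higher and 5 lower in males, against 1690 and 4460 of all 8361 probe sets. The stage effect differed between the sexes for 17 of 23 genes, 73.9%, where 69% of all tested probe sets passed (35.2% with a higher male value and 33.8% with a lower one).

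Markers moved with the E14.5 male arrays. In this comparison of male stages 38% of all tested probe sets were higher and 39.9% lower. Of 6 tested Leydig and steroidogenic genes 5 rose and none fell, with a median of 1.67 and summed levels (log2) of 11.54 in WT and 11.70 in KO at E12.5 and 13.33 and 12.84 at E14.5. All 4 tested genes of the limb or tail mesenchyme list rose, with a median of 0.91 and summed levels of 9.21 and 9.09 at E12.5 and 10.12 on both arrays at E14.5. Of 12 tested mesonephros and duct genes 5 rose and 3 fell, and of 7 endothelial genes 1 rose and 4 fell. All of these lists were read from the same arrays, and their part in the Hox differences was not tested.

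Genes that work with or on Hox genes were read from 4 lists. Their counts stand against the shares of all tested probe sets given above. For the female stages these were 8.41% higher and 14.6% lower, and for the male stages 38% and 39.9%. Of the TALE cofactors, 6 of 9 listed genes were tested. In females from E12.5 to E14.5 Meis1 fell by 0.40 ± 0.07 (SE; adjusted p 0.0236) and Pbx2 by 0.34 ± 0.06 (SE; adjusted p 0.0276), with none higher and a list median of -0.14. None differed between the sexes at E12.5. In males Meis3 (1.01) and Pbx2 (0.24) rose and Meis1 (-0.77) and Meis2 fell. Meis2 was under the floor in both E14.5 males, so its difference of -0.17 is a least size, and without the floor it was -1.53.

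Of 14 tested Polycomb genes, which encode subunits of the silencing complexes, 3 fell and none rose in females, a share close to the 23.1% of all tested probe sets that passed. Cbx2, whose loss causes sex reversal in mice, fell by 0.69 ± 0.05 (SE; adjusted p 0.00883). Ezh2, the histone methyltransferase, fell by 0.51 ± 0.07 (SE; adjusted p 0.0141) and Jarid2 by 0.34 ± 0.08 (SE; adjusted p 0.046). The list median was -0.17. At E12.5 Pcgf2 was higher in males by 0.32 ± 0.06 (SE; adjusted p 0.0377), and Jarid2 lower by 0.41 ± 0.08 (SE; adjusted p 0.0403). In males 2 rose and 11 fell over the interval, with a median of -0.60 and 77.8% of all tested probe sets called.

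Of 7 tested trithorax genes, Kmt2a, a histone methyltransferase that keeps Hox genes active, fell by 0.49 ± 0.09 (SE; adjusted p 0.0284) in females. Kdm6a, an X-linked demethylase, was lower in males at E12.5 by 0.68 ± 0.09 (SE; adjusted p 0.0226). In males from E12.5 to E14.5 the list had 3 genes higher and 4 lower, where 77.8% of all tested probe sets passed.

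Of 14 tested upstream regulators, mostly of retinoic acid signalling, 5 fell and 1 rose in females, where 14.6% of all tested probe sets fell and 8.41% rose. Crabp1, a retinoic acid binding protein, fell by 1.06 ± 0.10 (SE; adjusted p 0.0102), and Aldh1a2, the enzyme that makes retinoic acid in the mesonephros, by 0.79 ± 0.12 (SE; adjusted p 0.0168). Cyp1b1 fell by 0.69, Acvr2b by 0.64 and Crabp2 by 0.57, and the receptor Rarg rose by 0.33 ± 0.06 (SE; adjusted p 0.0273). At E12.5 the receptor Rara was higher in males by 0.31 ± 0.07 (SE; adjusted p 0.0491). In males 5 rose and 6 fell over the interval, where 38% and 39.9% of all tested probe sets did. Evx1 and Evx2, homeobox genes at the ends of the Hoxa and Hoxd clusters, rose by 0.62 and 0.96, and by 0.82 for Evx1 without the floor. Cdx1, Cdx2 and Cdx4, which activate central Hox genes in the early embryo, were under the floor on all 8 arrays. No gene of the 4 lists was called in the KO comparison in either sex, and neither was any other tested probe set.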

How the data were processed

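The deposited log2 values cover 12488 probe sets and were made with MAS5, per the submitters' processing notes. The log base was read from the values, 2.36 to 15.0, and the MAS5 settings are unknown here. The deposited KO male E12.5 column also held other values: 14 cells were date numbers from 41278 to 41284 and were set to missing; none was in a Hox probe set. Arrays were shifted to 1 common median. Values under the 40th percentile (6.99) were set to it, and the 8452 probe sets above it on at least 2 arrays were fitted, control probe sets left out.

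Tests used limma 3.58.1 in R 4.3.3 with an intensity trend, the model sex × genotype plus sex × stage over all 8 arrays, and Benjamini-Hochberg adjustment at 0.05, two-sided. A companion fit used sex × stage plus genotype × stage. Each has 2 residual degrees of freedom, with 2.77 and 4.38 prior ones. No group has a replicate, so the spread comes from effects that differ across the crossed factors, and nothing measures embryo-to-embryo spread. The fits were tested on simulated data. All members were described, called members were named, and otherwise up to 6 with the largest difference and 1 sign. The members and lists were chosen with earlier results of these data known. Alternatives changed the centring, floor, filter, trend, probe set and arrays.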

Additional observations from a re-analysis of the deposited data

Results flagged for a closer look

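For 17 Hox genes the change from E12.5 to E14.5 differed between the sexes, by the sex × stage term of the limma fit at an adjusted p under 0.05. All rest on the 2 E14.5 male arrays, which stand apart from the other 6, and 69% of all tested probe sets passed the same test. The values below are the male stage difference minus the female one, in log2.

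In the Hoxa cluster they were 1.53 for Hoxa6, 1.49 for Hoxa4, 0.52 for Hoxa7, 0.26 for Hoxa3, 0.19 for Hoxa9, -0.31 for Hoxa2 and -0.53 for Hoxa5. In the Hoxb cluster they were 0.96 for Hoxb8, 0.58 for Hoxb6, 0.47 for Hoxb3 and -0.96 for Hoxb7. In the Hoxc cluster they were -0.17 for Hoxc4, -0.30 for Hoxc9 and -1.68 for Hoxc8. In the Hoxd cluster they were 1.07 for Hoxd9, 0.85 for Hoxd10 and 0.62 for Hoxd13. Hoxa2, Hoxa3, Hoxa5, Hoxa9, Hoxb3, Hoxb7, Hoxc4, Hoxc8, Hoxc9 and Hoxd13 had arrays at the floor, so the size of their values depends on it. For Hoxa9 and Hoxc4 the direction depends on it too: without the floor Hoxa9 was -1.29 (adjusted p 0.000117) and Hoxc4 was 0.08 (adjusted p 0.484) in limma's test. Leaving out each array in turn kept 8 of the 17 calls throughout, those of Hoxa3, Hoxa4, Hoxa6, Hoxb3, Hoxb8, Hoxc8, Hoxd9 and Hoxd13. Of these, Hoxa3, Hoxb3, Hoxc8 and Hoxd13 had arrays at the floor, where raised values cannot differ and the spread is lowered. Hoxa4, Hoxa6 and Hoxb8 were read by _r_at probe sets, of which 77.8% were called higher here, against 32.3% of plain ones.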

How the results depend on the processing

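No paired analysis was possible because each group has 1 array, so no replicate numbers are shared between groups. KO calls stayed at 0 in both sexes and in their difference under every alternative. For KO at E12.5 over both sexes, a floor at the 20th percentile called 1 Hox gene. Male minus female at E12.5 called 4 Hox genes, and 7 without centring, 0 without the filter, 1 among genes above the floor on all 8 arrays and 0 without the E14.5 male arrays. The female stage comparison called 6, and 16 without centring, 10 with the 20th percentile floor, 0 without the filter and 0 without the E14.5 male arrays. Without centring, calls over all 8361 probe sets moved too, to 2460 higher and 413 lower between the sexes at E12.5. In the female stages they moved to 270 higher and 4886 lower. The counts for other floors and filters are given without the share over all probe sets, so they are no result about Hox genes alone. Among genes above the floor on all 8 arrays, 10 of 16 calls remained in number for the sexes at E14.5, 9 of 18 for the male stages and 8 of 17 for the stage-by-sex difference, with fewer genes tested. At the 60th percentile 14 of the 31 genes counted as detected. Leaving out 1 array called 4892 to 6135 of all probe sets for the sexes at E14.5, 4982 to 6144 for the male stages and 4130 to 4402 for stage by sex. Among Hox genes it gave 0 to 0 calls for KO in females, in males, by sex and at E12.5. It also gave 0 to 0 for the sexes at E12.5 and for the female stages. It gave 13 to 16 for the sexes at E14.5, 14 to 17 for the male stages, 10 to 13 for stage by sex (10 without WT female E12.5 or WT female E14.5, 11 without KO male E12.5 or KO male E14.5) and 0 to 1 for KO at E14.5.

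Signs turned without centring for Hoxb5 (-0.12) and Hoxb6 (-0.12) between the sexes at E14.5, for Hoxa3 (-0.34), Hoxa7 (-0.45), Hoxd9 (-0.33), Hoxd10 (-0.17) and Hoxd11 (-0.36) in the male stages, and for Hoxa3 (-0.14) and Hoxa7 (-0.012) in stage by sex. In stage by sex Hoxa9 turned to -1.29 with no floor and -1.13 with the 20th percentile floor, and Hoxc4 to 0.081 under both. Hoxc5 for KO at E14.5, -0.01, turned to 0.0006 without centring, 0.0009 after quantile normalization and 0.0053 when centred on probe sets always above the floor, an alternative chosen after seeing the data. Calls over all probe sets also shifted in balance. The share of them that was higher was 36.5% in the female stages and 5.24% without centring, 49% after quantile normalization and 58.9% with that added centring. For the sexes at E12.5 it was 47.8% and 85.6% without centring, and for the male stages 48.8% and 11.1%. The causes were not tested.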

Other observations

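A pair of probe sets annotated to several genes of the Hoxd cluster at once, and so outside the 31 genes, behaved unlike each other. Probe set 98367_at gave 7.61 in WT and 7.89 in KO females at E12.5 and 6.38 and 6.62 at E14.5, and 7.69 and 8.02 in males at E12.5 and 6.70 and 6.56 at E14.5. It fell in both sexes in limma's test, with adjusted p 0.0156 in females and 0.00126 in males, and all 4 E14.5 values were under the floor. Probe set 102380_s_at was higher in males at E12.5 by 0.64 ± 0.13 (SE; adjusted p 0.0398), at 8.88 in WT and 9.19 in KO males against 8.30 and 8.48 in females, and it stayed above the floor on all 8 arrays. Of the probe sets of Hoxa11os, the antisense transcript of Hoxa11, 93873_s_at was under the floor on all arrays but those of E14.5 males. It gave 6.14 in WT and 5.87 in KO males at E12.5 and 7.45 and 7.71 at E14.5. With the E12.5 males raised to the floor the rise was 0.59 ± 0.07 (SE; adjusted p 0.000871), its least size, and without the floor it was 1.57. The other probe set of Hoxa11os, 161670_f_at, was above the floor on 7 arrays, among them all those of females. In males it rose by 0.49 ± 0.09 (SE; adjusted p 0.00519 in limma's test), and by 0.54 without the floor. Whether these arrays mark strand was not checked here, so these signals and that of Hoxa11 are reported apart and not compared.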
